A study of Mus musculus with 16 samples.

Results

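The genes described here are 42 genes of eicosanoid and oxylipin synthesis, breakdown and sensing, taken by symbol from a count table of 54392 gene symbols. They comprise 12 phospholipases, 12 genes of the cyclooxygenase branch, 7 of the lipoxygenase branch, 2 epoxide hydrolases and 9 receptors, and all 42 were found in the table. RNA-seq had been done on colonocytes, epithelial cells of the large bowel, of C57BL/6 mice that had eaten 1 of 2 diets for 3 weeks. The fish oil/pectin diet, whose fat supplies n-3 fatty acids and whose fibre is fermentable, was given to the mice behind 7 libraries. The corn oil/cellulose diet, whose fat supplies mainly n-6 fatty acids and whose fibre is poorly fermented, was given to the mice behind 9 libraries. Fat and fibre were changed together, so their effects cannot be told apart. No genotype or other treatment is named for either diet, and the labels state neither age nor sex. The libraries are numbered as biological replicates, but nothing says that each came from a separate mouse, so the p-values below measure the spread between these libraries, which may in part be technical.

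Eicosanoids are oxygenated signalling lipids. Phospholipase A2 enzymes free polyunsaturated fatty acids such as arachidonic acid from membranes, and cyclooxygenases, lipoxygenases and cytochrome P450 epoxygenases oxidise them to prostaglandins, leukotrienes and epoxides. Prostaglandin E2 acts on colonic epithelium and stroma through the EP receptors and is inactivated by the dehydrogenase Hpgd, which normal colonocytes make in abundance. The n-3 fatty acids of fish oil compete with arachidonic acid for these enzymes. A count of RNA reports neither enzyme activity nor the lipids themselves.

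Library totals were 16212831 to 19512755 counts with fish oil/pectin and 13996288 to 19331984 with corn oil/cellulose, so 1 count was worth 0.0501 to 0.0685 CPM (counts per 1e+06, after TMM scaling). The 12 epithelial markers summed to 21700 to 36300 CPM with fish oil/pectin and 21100 to 25900 CPM with corn oil/cellulose. Library names came in 2 forms, which may mark separate handling: a GC prefix stood on 5 of 7 fish oil/pectin and 5 of 9 corn oil/cellulose libraries. The diets were compared with edgeR's quasi-likelihood test with the name form as a term, over 13825 genes, with Benjamini-Hochberg adjustment and a threshold of 0.05. Log2 fold changes below are fish oil/pectin over corn oil/cellulose, given with the standard error. Fish oil/pectin library 7 stood apart in Hoxd13, a gene of distal colon, with 0.629 CPM, against 23.9 to 87.8 CPM in the remaining 6 with that diet and 25.4 to 101 CPM with corn oil/cellulose. For the members described by their fold change, the value without that library is given where it held the highest value.

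Levels of the 42 genes spanned a wide range, compared here as median CPM per kb of exon. Hpgd stood highest, at 162 CPM per kb with fish oil/pectin and 207 with corn oil/cellulose. The secretory phospholipase gene Pla2g10 followed at 61.0 and 55.0 CPM per kb, and the leukotriene A4 hydrolase gene Lta4h at 35.0 and 29.3 CPM per kb, each with the fish oil/pectin value first. Both cyclooxygenase genes were near the bottom: Ptgs1 was at 0.283 CPM per kb with fish oil/pectin and 0.370 with corn oil/cellulose, and Ptgs2 at 0.00 and 0.0126 CPM per kb. The enzymes downstream of the cyclooxygenases that were well detected were Ptges3, Ptgr1, Ptgr2 and Ptges2, each over 10 CPM per kb with either diet. Among the receptors Ffar4 (12.2 with fish oil/pectin, 10.1 with corn oil/cellulose) and Ptger4 (4.47 and 5.28) had the highest medians per kb.

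**Figure D1:**
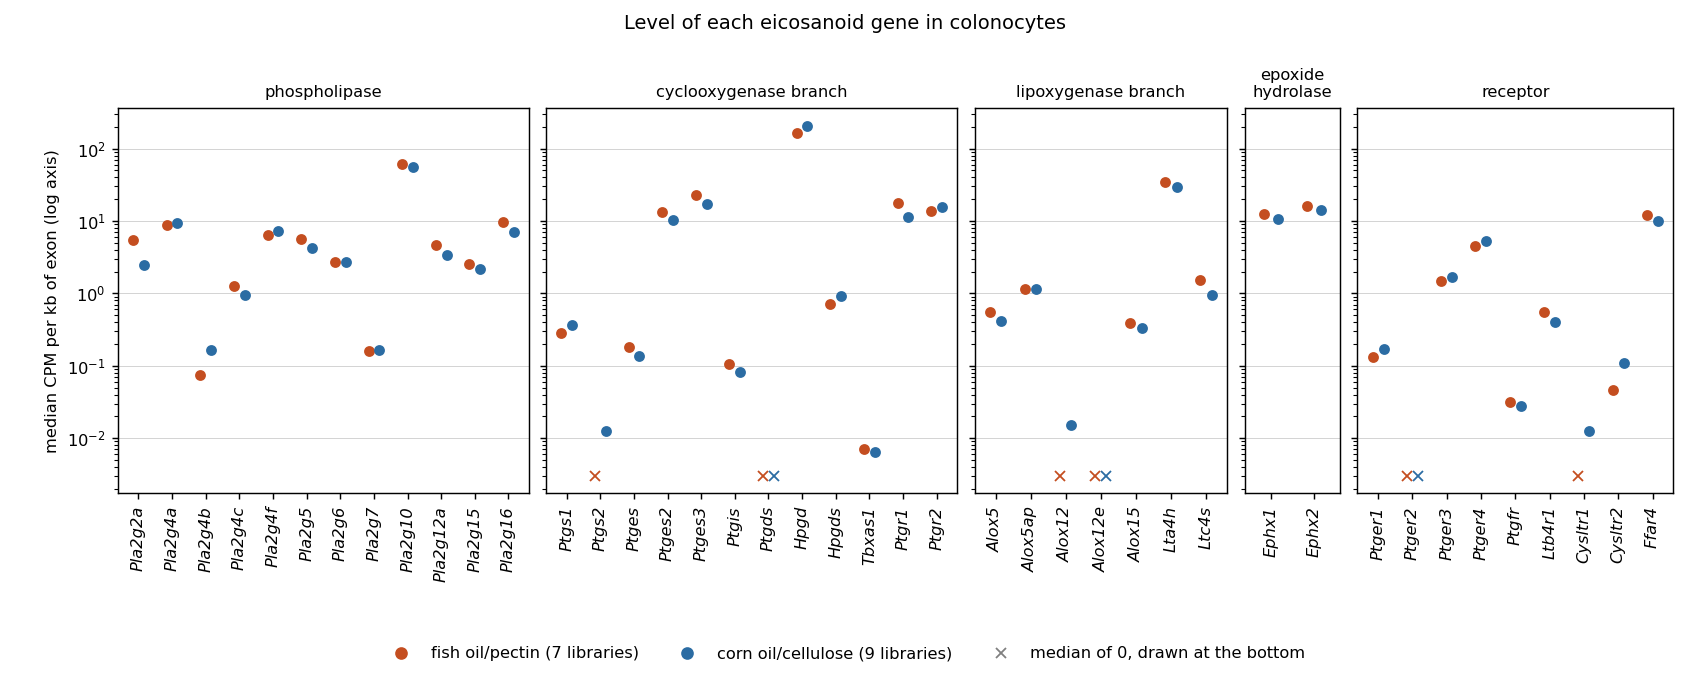
Median CPM per kb of exon (log axis) of each of the 42 genes, by role, with fish oil/pectin (orange, 7 libraries) beside corn oil/cellulose (blue, 9 libraries); crosses mark a median of 0. Hpgd is highest, at 162 and 207 CPM per kb, and the cyclooxygenase genes Ptgs1 and Ptgs2 lie near the bottom.

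Of the 42 genes 30 had enough counts to be tested, and 10 of these passed the test for diet. With fish oil/pectin 8 were higher and 2 were lower, and 20 did not pass. That is 33.3% of the tested members, against 42.7% of all genes tested; the higher calls were 26.7% of members and 22.1% of all genes, and the lower calls 6.67% of members and 20.6% of all genes. A share near or under that of all genes is not read as a result about these genes. Their median log2 fold change was 0.15, against -0.01 over all genes, and their median absolute change 0.29, against 0.22. No member had diet groups free of overlap, 0 higher and 0 lower, against 2.32% and 1.08% of all genes. By role, 4 of 11 tested phospholipases were higher and 0 lower. In the cyclooxygenase branch 3 of 7 were higher and 2 lower. In the lipoxygenase branch 1 of 5 was higher and 0 lower, and 0 of 2 epoxide hydrolases and 0 of 5 receptors passed. In these bulk samples fewer cells of a type and less RNA per cell cannot be told apart.

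**Figure D2:**
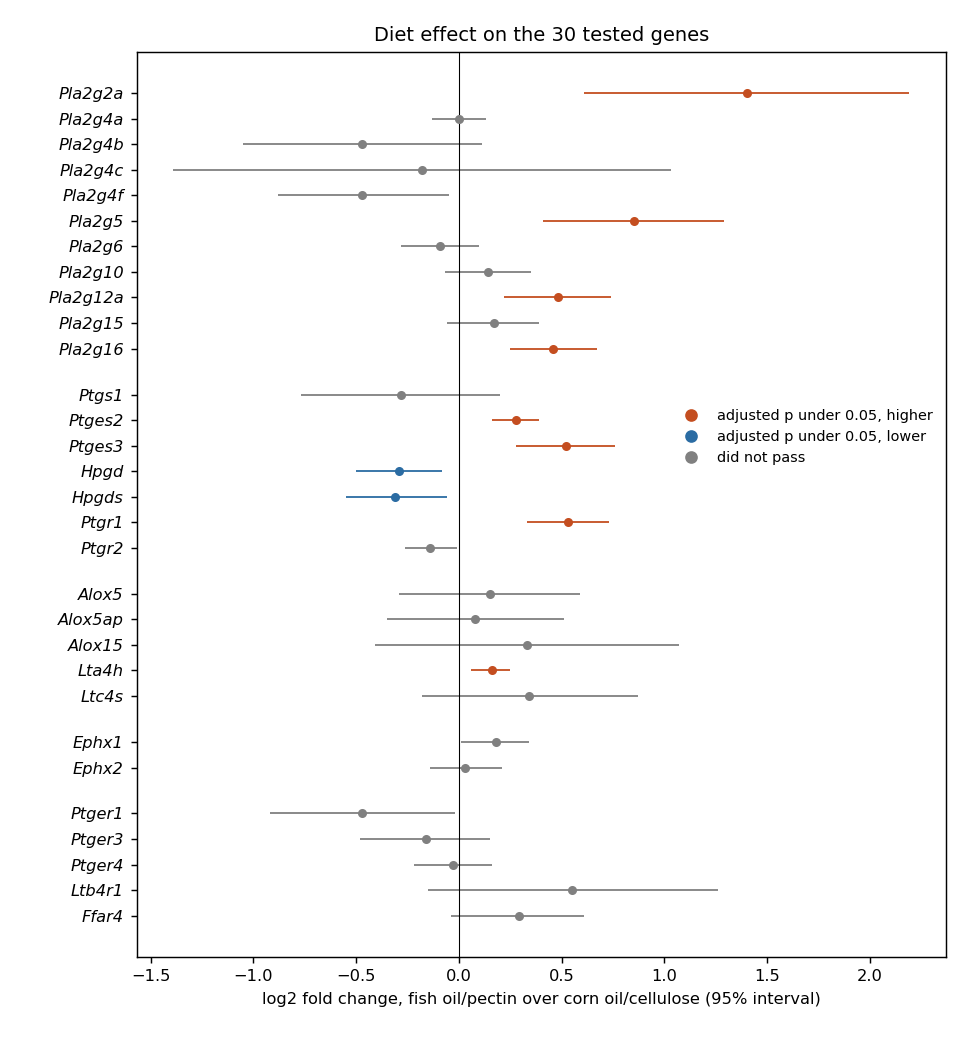
Log2 fold change of each of the 30 tested genes, fish oil/pectin over corn oil/cellulose, with its 95% interval, grouped from top to bottom by phospholipase, cyclooxygenase branch, lipoxygenase branch, epoxide hydrolase and receptor. The 8 higher genes (orange) run from 0.16 to 1.40, and the 2 lower genes (blue) stand at -0.29 and -0.31.

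The largest fitted changes were those of a neighbouring pair of secretory phospholipase A2 genes on chromosome 4. Pla2g2a (ENSMUSG00000058908.14, GRCm38 chr4:138831857-138835186, plus strand) encodes the group IIA enzyme, an antibacterial phospholipase that Paneth cells secrete in strains with an intact gene. C57BL/6 mice carry a natural frameshift in it that disrupts the enzyme. Pla2g5 (ENSMUSG00000041193.15, chr4:138799244-138863482, minus strand) encodes the group V enzyme. Pla2g2a lies wholly inside the span of Pla2g5, on the other strand, and their exons do not overlap; Pla2g2c, Pla2g2d, Pla2g2e and Pla2g2f lie on either side. The RefSeq window from 250 bases before to 50 after the first listed start of Pla2g5 (GRCm38.p6, chr4:138863420-138863719, minus strand) is shown since this gene and the one nested in it were high in the same libraries. It held no match to any of the 4 motifs searched, nor did the window at the gene's other listed start, and RefSeq's table gave no window for Pla2g2a.
Pla2g5: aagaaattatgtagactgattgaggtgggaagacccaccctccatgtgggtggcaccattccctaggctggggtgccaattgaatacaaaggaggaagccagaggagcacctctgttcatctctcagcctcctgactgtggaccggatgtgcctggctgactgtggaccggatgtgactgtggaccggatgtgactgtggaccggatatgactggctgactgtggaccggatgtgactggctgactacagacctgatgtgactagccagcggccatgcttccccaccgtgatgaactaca

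Pla2g2a had 2.68 CPM at the lowest, 5.01 at the median and 13.8 at the highest with fish oil/pectin, against 1.10, 2.27 and 4.86 CPM with corn oil/cellulose. Fish oil/pectin libraries 2, 7 and 6, at 13.8, 13.5 and 9.90 CPM, lay above every corn oil/cellulose library, and library 5 did so narrowly, at 5.01. The log2 fold change was 1.40 ± 0.37 (edgeR adjusted p = 0.00737), or 2.64-fold. The call was lost without libraries 6 and 7 together, at 1.01 (adjusted p = 0.0655), and held without library 2 (1.04, adjusted p = 0.0337) or library 7 (1.20, adjusted p = 0.0192). It was also lost in GC-named libraries alone, at 1.09 (adjusted p = 0.0646), among names with no GC prefix, at 1.92 (adjusted p = 0.120), and among numbers in the 700s, at 1.51 (adjusted p = 0.0759). Pla2g5 had 12.0, 16.2 and 43.2 CPM as lowest, median and highest with fish oil/pectin, against 6.66, 12.3 and 19.8 CPM with corn oil/cellulose. The same 3 libraries were highest, in the same order (43.2, 28.1 and 25.5 CPM), and the other 4 lay within the corn oil/cellulose range. Among numbers in the 700s Pla2g5 was at 0.83 (adjusted p = 0.0665) and among names with no GC prefix at 0.88 (adjusted p = 0.226), passing in neither. Over all libraries its log2 fold change was 0.85 ± 0.21 (adjusted p = 0.00411), and 0.61 (adjusted p = 0.0307) without libraries 6 and 7. Of these libraries, 2 had the highest Cd14, at 80.2 CPM, against 39.1 CPM in the lowest fish oil/pectin library, and 7 had the lowest Hoxd13; the part of either in these values was not tested.

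The other phospholipases that rose did so by less and in more libraries. Pla2g12a (ENSMUSG00000027999.15, chr3:129878606-129895825), a secretory enzyme with little catalytic activity, had 12.5, 17.4 and 27.6 CPM as lowest, median and highest with fish oil/pectin, against 10.8, 12.5 and 14.6 CPM with corn oil/cellulose. In 6 of 7 fish oil/pectin libraries it stood above the corn oil/cellulose maximum, and library 7 was the highest. It rose by 0.48 ± 0.12 on the log2 scale (adjusted p = 0.00491), and by 0.36 (adjusted p = 0.00515) without library 7. The call was lost among numbers in the 700s (0.43, adjusted p = 0.105) and among names with no GC prefix (0.38, adjusted p = 0.115). Pla2g16 (ENSMUSG00000060675.13, chr19:7557459-7588545), a phospholipase best known in adipocytes, had 53.4, 62.4 and 87.8 CPM with fish oil/pectin, against 41.1, 44.9 and 57.3 CPM with corn oil/cellulose. Its ranges overlapped only between 53.4 and 57.3 CPM, where 2 libraries of each diet lay. The log2 fold change was 0.46 ± 0.10 (adjusted p = 0.00215), and 0.37 (adjusted p = 0.00217) without library 7, which was again the highest.

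The phospholipase most tied to eicosanoid synthesis did not pass the test. Pla2g4a, the calcium-dependent cytosolic enzyme that prefers arachidonate, had 44.8, 56.6 and 87.4 CPM with fish oil/pectin and 52.0, 59.6 and 81.1 CPM with corn oil/cellulose. Its spread followed the name form rather than the diet: libraries with GC names had 44.8 to 63.4 CPM with fish oil/pectin and 52.0 to 59.6 with corn oil/cellulose, and the others 82.6 to 87.4 and 77.8 to 81.1. The log2 fold change was 0.00 ± 0.06, with a 95% interval of -0.13 to 0.13. Pla2g10, whose product is the most potent secretory phospholipase on intact cells and is made by colonic epithelium, was at 0.14 (-0.07 to 0.35). The calcium-independent Pla2g6 was at -0.09 (-0.28 to 0.10), and at -0.14 (adjusted p = 0.238) without fish oil/pectin library 7, its highest. Pla2g4f, another cytosolic enzyme, was at -0.47 (adjusted p = 0.0637); it passed at -0.59 (adjusted p = 0.0300) when fish oil/pectin library 2 was left out, and at -0.52 (adjusted p = 0.0445) when corn oil/cellulose library 2 was. Pla2g4c was set by single libraries: it had 51.2 CPM in corn oil/cellulose library 3, against 1.96 to 8.84 CPM in the other 8 and 1.49 to 14.6 CPM with fish oil/pectin. With that library its log2 fold change was -0.18 (adjusted p = 0.820) and without it 0.48 (adjusted p = 0.304). With a replicate block, for numbers not shown to mark pairs, it was 1.22 (adjusted p = 0.0248), so neither its sign nor its call was settled. A pseudogene copy, Pla2g4c-ps, is among the counted genes and could share reads. Pla2g4b shares 66.5% of its exon bases with the readthrough gene Gm28042 on the same strand, so its counts, at 0.172 to 1.03 CPM with fish oil/pectin and 0.534 to 1.21 with corn oil/cellulose, are uncertain.

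In the cyclooxygenase branch the first step was barely measured. Ptgs2, the inducible cyclooxygenase gene, had 1 count over the 7 fish oil/pectin libraries and 12 over the 9 corn oil/cellulose libraries, in 1 and 5 libraries, and was not tested. Ptgs1, the constitutive cyclooxygenase gene and in gut epithelium a tuft cell gene, had 0.862, 1.10 and 2.46 CPM as lowest, median and highest with fish oil/pectin, against 0.478, 1.44 and 2.24 CPM with corn oil/cellulose. The ranges overlapped almost wholly, and the log2 fold change was -0.28 ± 0.23 (95% interval -0.77 to 0.20, adjusted p = 0.333). Without fish oil/pectin library 7, its highest, it was -0.47 (adjusted p = 0.0956).

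Of the prostaglandin E synthases the 2 that are broadly expressed rose and the inducible one was too low to test. Ptges2 (ENSMUSG00000026820.5, chr2:32395896-32405772), which encodes the membrane-associated synthase 2, had 45.2, 66.2 and 70.9 CPM with fish oil/pectin, against 39.3, 51.6 and 55.0 CPM with corn oil/cellulose. The 5 fish oil/pectin libraries with GC names lay at 62.8 to 70.9 CPM, above the 51.6 to 55.0 CPM of GC-named corn oil/cellulose libraries. In the other libraries Ptges2 had 45.2 to 47.8 CPM with fish oil/pectin and 39.3 to 47.8 CPM with corn oil/cellulose. In the model with an effect for each name form it was at 0.14 there (adjusted p = 0.374). Its log2 fold change was 0.28 ± 0.05 (adjusted p = 0.00110), and 0.26 (adjusted p = 0.00192) without library 7, its highest. Ptges3 (ENSMUSG00000071072.12, chr10:128058954-128077272), which encodes p23, a co-chaperone of Hsp90 that also has prostaglandin E synthase activity, had 44.4, 51.0 and 80.7 CPM with fish oil/pectin, against 28.8, 37.9 and 44.5 CPM with corn oil/cellulose. All but 1 fish oil/pectin library lay above the corn oil/cellulose maximum. The log2 fold change was 0.52 ± 0.11 (adjusted p = 0.00210), and 0.41 (adjusted p = 0.00180) without library 7, its highest; a pseudogene copy, Ptges3-ps, is in the table and could share reads. Ptges, the inducible microsomal synthase 1, had 108 counts over the fish oil/pectin libraries, 35 of them in library 2, and 81 over the corn oil/cellulose libraries.

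The RefSeq windows of both rising synthase genes held a match to a motif searched, and they are shown since the 2 genes rose together. In Ptges2 (GRCm38.p6, chr2:32395640-32395939, plus strand) the capitals mark an E-box, CACGTG, at 77 bases before the start. In Ptges3 (chr10:128058732-128059031, plus strand) they mark an antioxidant response element, TGACNNNGC read on the opposite strand, from 7 bases after the start.
Ptges2: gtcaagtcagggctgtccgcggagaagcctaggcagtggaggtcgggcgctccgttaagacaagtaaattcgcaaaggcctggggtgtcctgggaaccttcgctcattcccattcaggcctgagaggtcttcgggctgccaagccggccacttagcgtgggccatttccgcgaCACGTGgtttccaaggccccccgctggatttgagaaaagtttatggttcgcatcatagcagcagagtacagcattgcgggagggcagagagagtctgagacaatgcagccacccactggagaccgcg
Ptges3: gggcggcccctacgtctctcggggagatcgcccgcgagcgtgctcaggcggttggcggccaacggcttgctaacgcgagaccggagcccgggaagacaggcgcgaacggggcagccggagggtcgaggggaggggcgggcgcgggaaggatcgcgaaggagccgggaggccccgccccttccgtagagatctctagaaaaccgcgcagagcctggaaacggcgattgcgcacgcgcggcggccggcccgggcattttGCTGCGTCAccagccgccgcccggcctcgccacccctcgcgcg

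The E-box was found in 5.56% of 36 member windows and 7.15% of 32851 windows of all genes, on both strands since it is its own reverse complement. The antioxidant response element was found in 16.7% of member windows and 12.4% of all. The other members with that element were Ltb4r1, Pla2g10 and Pla2g4c, of which 0 passed the test for diet, and Cysltr2 and Pla2g7, which had too few counts to be tested; Ptgs2 was the other member with an E-box. The cyclic AMP response element TGACGTCA was in 0 member windows and 1.79% of all. The motifs do not overlap each other in these windows. A match is a description of letters, not evidence of binding.

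Both genes that fell belong to prostaglandin metabolism. Hpgd (ENSMUSG00000031613.9, chr8:56294585-56321043), the dehydrogenase that inactivates prostaglandin E2, had 208, 273 and 367 CPM as lowest, median and highest with fish oil/pectin, against 287, 349 and 368 CPM with corn oil/cellulose. In 5 of 7 fish oil/pectin libraries it lay below the corn oil/cellulose minimum, while libraries 3 and 4 lay within that range. The log2 fold change was -0.29 ± 0.10 (adjusted p = 0.0254), which is 0.819-fold. It no longer passed when fish oil/pectin library 1 was left out (-0.27, adjusted p = 0.0558), nor without fish oil/pectin library 2 (-0.21, adjusted p = 0.0830). Nor did it pass without corn oil/cellulose library 9 (-0.27, adjusted p = 0.0501), or without fish oil/pectin libraries 6 and 7 together (-0.25, adjusted p = 0.0848). In GC-named libraries alone it was at -0.16 (adjusted p = 0.270), and among numbers in the 700s at -0.32 (adjusted p = 0.0813), passing in neither. The call was kept with names lacking the GC prefix fitted alone. In the model with an effect for each name form Hpgd did not pass there (-0.57, adjusted p = 0.196), nor did any other gene (0.00% of all genes).

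Hpgds (ENSMUSG00000029919.5, chr6:65117293-65144908), the haematopoietic prostaglandin D synthase made in gut by tuft and mast cells, had 4.14, 4.55 and 5.98 CPM with fish oil/pectin, against 4.86, 5.83 and 7.58 CPM with corn oil/cellulose. Of the 7 fish oil/pectin libraries 4 lay below the corn oil/cellulose minimum and libraries 1, 3 and 7 within the range. In the model with an effect for each name form, the log2 fold change was -0.42 (adjusted p = 0.0197) in GC-named libraries and -0.10 (adjusted p = 0.822) in the others. These were not shown to differ (adjusted p = 0.414). Over all libraries the log2 fold change was -0.31 ± 0.12 (adjusted p = 0.0408). This call was lost without any 1 of 9 libraries, namely 2, 4, 5 and 6 of fish oil/pectin and 2, 5, 6, 7 and 8 of corn oil/cellulose, with values from -0.25 to -0.31 and adjusted p from 0.0547 to 0.0900. Under 17 of 33 alternative settings the call was lost. Among them were no name form term (-0.30, adjusted p = 0.0502), no filter (-0.30, adjusted p = 0.0978), the exon length trend removed (-0.20, adjusted p = 0.179) and a non-epithelial marker score (-0.28, adjusted p = 0.328). Tuft cell markers summed to 61.4 to 102 CPM with fish oil/pectin and 61.9 to 112 CPM with corn oil/cellulose. With a tuft marker score in the model Hpgds kept its call, at -0.31 (adjusted p = 0.0338). Mast cell markers summed to 44.5 to 91.9 CPM with fish oil/pectin and 76.9 to 127 CPM with corn oil/cellulose, and 3 of 4 tested fell. In GC-named libraries these sums were 44.5 to 73.7 CPM with fish oil/pectin and 78.5 to 120 CPM with corn oil/cellulose. In the others they were 88.3 to 91.9 and 76.9 to 127 CPM. Most of each sum was Kit, so the sums mainly followed that gene, at 34.2 to 86.8 CPM with fish oil/pectin and 61.5 to 120 CPM with corn oil/cellulose. The proteases Mcpt1, at 2.76 to 7.38 CPM with fish oil/pectin and 2.94 to 13.1 CPM with corn oil/cellulose, and Mcpt2, at 0.632 to 3.23 and 1.10 to 5.55 CPM, fell with it, by 0.59 (adjusted p = 0.0114) and 0.76 (adjusted p = 0.00817) on the log2 scale. Cma1 reached 5.35 CPM with fish oil/pectin and 3.98 CPM with corn oil/cellulose and did not pass (adjusted p = 0.493). The other 6 of the 10, Cpa3, Mcpt4, Tpsb2, Fcer1a, Ms4a2 and Hdc, were under 1 CPM in every library; the part of mast cells in the Hpgds result was not tested. Its RefSeq window (GRCm38.p6, chr6:65144681-65144980, minus strand) is shown since it was the 1 member window of 36 (2.78%, against 1.74% of all windows) with the octamer ATGCAAAT, in capitals, 174 bases before the start; POU factors, among them the tuft cell regulator Pou2f3, bind octamers.
Hpgds: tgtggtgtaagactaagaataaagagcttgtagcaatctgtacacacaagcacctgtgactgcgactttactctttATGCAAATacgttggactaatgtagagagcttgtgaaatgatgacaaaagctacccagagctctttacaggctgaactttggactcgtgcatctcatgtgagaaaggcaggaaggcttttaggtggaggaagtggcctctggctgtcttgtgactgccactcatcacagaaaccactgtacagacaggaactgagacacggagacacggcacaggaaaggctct

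Of the steps that reduce prostaglandins and leukotrienes, Ptgr1 rose and Ptgr2 did not pass. Ptgr1 (ENSMUSG00000028378.6, chr4:58965439-58987119), an oxidoreductase that inactivates leukotriene B4 and acts on 15-keto-prostaglandins, had 27.6, 41.1 and 48.0 CPM with fish oil/pectin, against 21.9, 25.8 and 31.1 CPM with corn oil/cellulose. In 6 of 7 fish oil/pectin libraries it stood above the corn oil/cellulose maximum, and library 2 lay within that range. Its log2 fold change of 0.53 ± 0.10 had the lowest adjusted p of the tested members (0.000779), and it was 0.48 (adjusted p = 0.000960) without library 7, its highest. Ptgr2, which reduces 15-keto-prostaglandin E2, was at -0.14 ± 0.06 (adjusted p = 0.0680), and passed with fish oil/pectin library 4 left out (-0.17, adjusted p = 0.0343) and with corn oil/cellulose library 8 left out (-0.16, adjusted p = 0.0375); 32.0% of its exon bases overlap the opposite-strand gene Gm47484. The other synthases were near 0: prostacyclin synthase Ptgis had 37 counts over the fish oil/pectin and 32 over the corn oil/cellulose libraries, thromboxane synthase Tbxas1 had 10 and 7, and lipocalin-type prostaglandin D synthase Ptgds had 2 and 1.

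**Figure D3:**
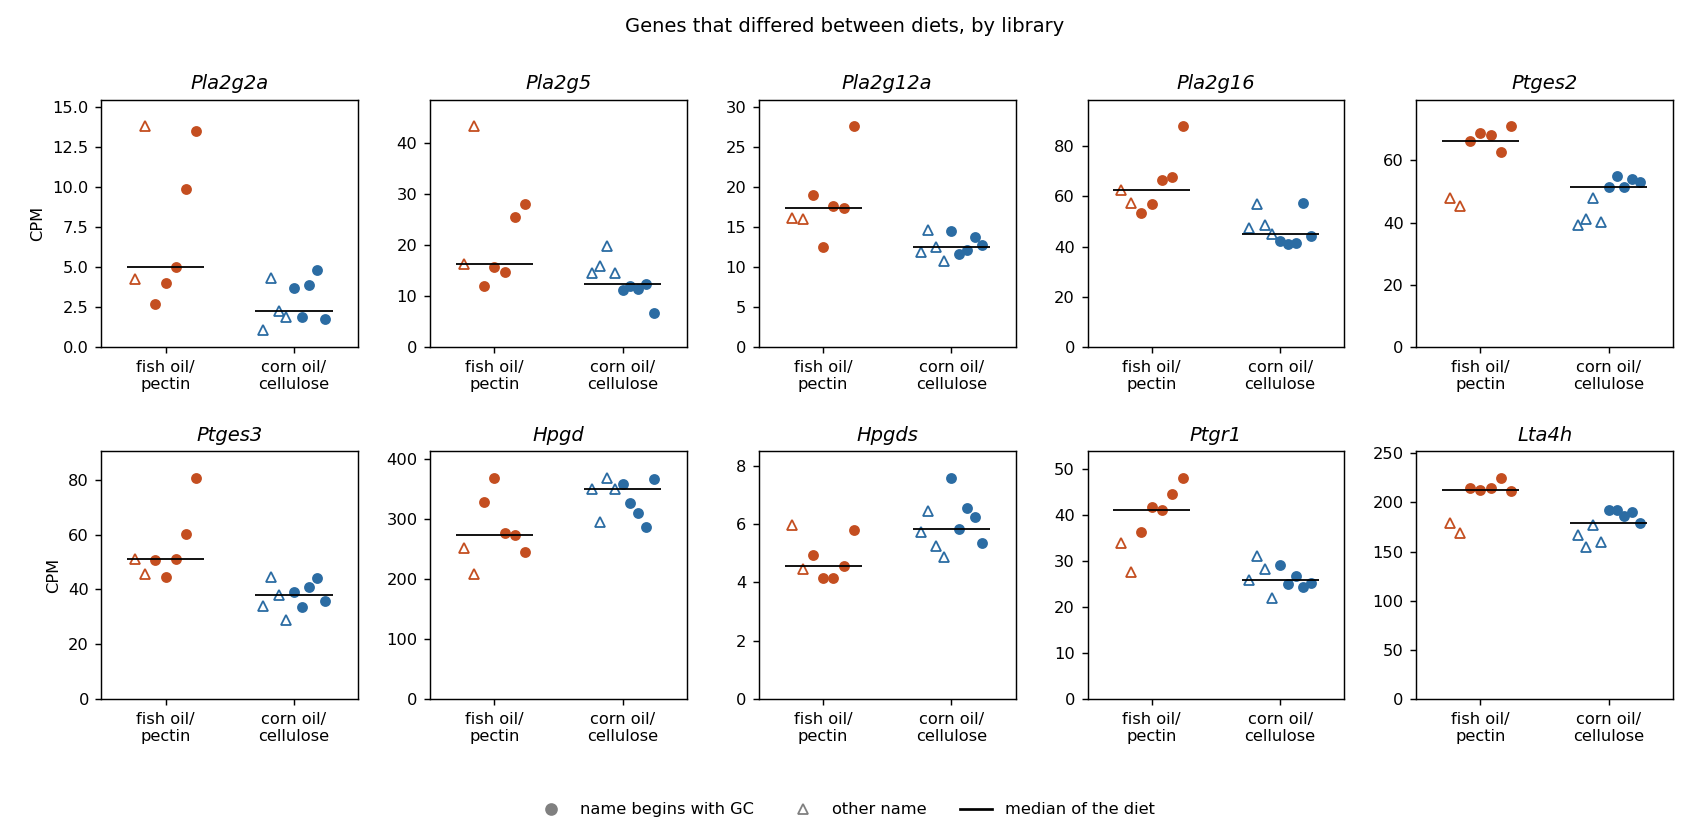
CPM in each library of the 10 genes that passed the test for diet, fish oil/pectin left of corn oil/cellulose, with filled circles for GC-named libraries, open triangles for the others and a bar at the median of the diet. Pla2g2a and Pla2g5 are high in 3 fish oil/pectin libraries, whereas Ptgr1, Ptges3 and Pla2g12a lie above the corn oil/cellulose maximum in 6 of 7.

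In the lipoxygenase branch the last step of leukotriene B4 synthesis rose slightly. Lta4h (ENSMUSG00000015889.8, chr10:93453411-93484875) had 169, 213 and 225 CPM as lowest, median and highest with fish oil/pectin, against 155, 179 and 192 CPM with corn oil/cellulose. With fish oil/pectin the 5 GC-named libraries had 212 to 225 CPM, above every corn oil/cellulose library, and the remaining 2 had 169 and 179 CPM, within that range. Its log2 fold change was 0.16 ± 0.05 (adjusted p = 0.00972), the smallest of the called genes. The call was lost with total counts alone (0.09, adjusted p = 0.112), a replicate block (0.16, adjusted p = 0.0980) and no filter (0.16, adjusted p = 0.0533). It was also lost among numbers in the 700s (0.15, adjusted p = 0.0947) and among names with no GC prefix (0.09, adjusted p = 0.524). With a score of non-epithelial markers in the model it was lost too (0.10, adjusted p = 0.326).

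The lipoxygenases themselves were low. Alox5, which starts leukotriene synthesis in leukocytes and tuft cells, had 1.16, 2.24 and 2.80 CPM with fish oil/pectin and 0.822, 1.72 and 3.05 CPM with corn oil/cellulose, a log2 fold change of 0.15 ± 0.21 (95% interval -0.29 to 0.59), and 0.09 (adjusted p = 0.777) without fish oil/pectin library 7, its highest. Its partner Alox5ap, which presents arachidonate to it, had 0.833, 1.62 and 2.64 CPM with fish oil/pectin and 1.03, 1.61 and 2.35 CPM with corn oil/cellulose (0.08, -0.35 to 0.51). Alox15 had 0.629, 0.970 and 1.89 CPM with fish oil/pectin and 0.274, 0.809 and 2.33 CPM with corn oil/cellulose (0.33, -0.41 to 1.07). For these 3 genes the diets overlapped almost wholly, and the intervals leave room for changes larger than those called in more abundant genes. Ltc4s, the leukotriene C4 synthase, had 0.632, 1.55 and 2.98 CPM with fish oil/pectin and 0.762, 0.956 and 1.98 CPM with corn oil/cellulose (adjusted p = 0.282, or 0.549 without fish oil/pectin library 7, its highest), with 26.4% of its exon bases under the antisense gene Gm26542. Alox12, the platelet enzyme, had 4 counts over the fish oil/pectin libraries and 8 over the corn oil/cellulose libraries, and Alox12e had 2 and 0. Myeloid markers summed to 48.1 to 89.4 CPM with fish oil/pectin and 42.3 to 55.4 CPM with corn oil/cellulose, mostly from Cd14, so the sum is not read as leukocyte content. After Cd14 the highest was C1qa, at up to 6.07 CPM with fish oil/pectin and 7.09 with corn oil/cellulose. Adgre1 reached 0.165 and 0.179 CPM, and Csf1r 0.990 and 0.995 CPM. The 6 neutrophil markers summed to at most 0.264 CPM in any fish oil/pectin library and 0.320 CPM in any corn oil/cellulose library.

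Neither epoxide hydrolase passed over all libraries. Ephx2, the soluble enzyme that turns fatty acid epoxides into diols, had 24.7, 40.4 and 43.7 CPM with fish oil/pectin and 28.7, 35.0 and 38.1 CPM with corn oil/cellulose, a log2 fold change of 0.03 ± 0.08 (95% interval -0.14 to 0.21). The fish oil/pectin libraries split by name form: 4 of the 5 GC-named ones, at 40.4 to 43.7 CPM, lay above every corn oil/cellulose library, and the other 2, at 24.7 and 27.7, below every one. Ephx1, the microsomal enzyme, was at 0.18 ± 0.08 (adjusted p = 0.0816), and passed without corn oil/cellulose library 1 (0.21, adjusted p = 0.0357).

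No receptor gene passed. Ptger4, the EP4 receptor of prostaglandin E2, had 25.8, 29.7 and 39.7 CPM with fish oil/pectin and 24.1, 35.1 and 47.4 CPM with corn oil/cellulose (log2 fold change -0.03 ± 0.09, 95% interval -0.22 to 0.16). Ffar4, a receptor for long-chain fatty acids that include the n-3 fatty acids of fish oil, had 12.4, 17.0 and 25.9 CPM with fish oil/pectin and 11.6, 14.1 and 19.8 CPM with corn oil/cellulose (0.29 ± 0.15, -0.04 to 0.61, adjusted p = 0.141). Only libraries 5 and 7, at 25.3 and 25.9 CPM, lay above the corn oil/cellulose maximum, and without library 7 it was at 0.19 (adjusted p = 0.313). The EP3 receptor gene Ptger3 had 5.26 to 10.7 CPM with fish oil/pectin and 7.09 to 14.5 CPM with corn oil/cellulose, and the EP1 receptor gene Ptger1 0.515 to 0.920 and 0.595 to 1.64 CPM. The counts of Ptger1 are uncertain, and its test is not described further. The leukotriene B4 receptor gene Ltb4r1 had 0.269 to 1.77 CPM with fish oil/pectin and 0.254 to 0.832 CPM with corn oil/cellulose.

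Among the receptors too low for the filter, the cysteinyl leukotriene receptor genes had fewer reads with fish oil/pectin. Cysltr1 had 0 counts over the 7 fish oil/pectin libraries and 9 over 5 of the 9 corn oil/cellulose libraries, and Cysltr2 had 20 and 49 counts. The EP2 receptor gene Ptger2 had 3 counts with fish oil/pectin and 13 with corn oil/cellulose, and the prostaglandin F receptor gene Ptgfr 21 and 32. Without a filter on low counts Cysltr1 had an adjusted p of 0.0440 and Ptgs2, Ptges and Cysltr2 adjusted p of 0.0524, 0.0504 and 0.0574, on totals this small. With corn oil/cellulose 11 of the 12 Ptgs2 counts, 37 of the 49 Cysltr2 counts and 5 of the 9 Cysltr1 counts came from GC-named libraries.

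The diet effect was read within each name form in 1 model. In GC-named libraries (5 per diet) 14 members passed, 11 higher and 3 lower, among 45.8% of all genes. In the other libraries (2 fish oil/pectin, 4 corn oil/cellulose) 0 members passed, as did 0.00% of all genes; 4 members and 2356 genes had an unadjusted p under 0.05 there. The sign was the same in both forms for 23 of 30 members. A difference between the forms passed for 2 members, among 8.77% of all genes. Ephx2 was at 0.19 ± 0.08 where names began with GC and at -0.28 ± 0.11 elsewhere, and these differed by 0.47 (adjusted p = 0.0378). Pla2g15, the lysosomal phospholipase A2 gene, had 7.49 to 9.16 CPM in GC-named fish oil/pectin libraries, against 5.66 to 6.78 CPM in GC-named corn oil/cellulose libraries, and 4.96 and 5.69 CPM, against 5.71 to 6.63, in the others. Its effects were 0.36 ± 0.10 and -0.22 ± 0.14, a difference of 0.59 (adjusted p = 0.0488). The name forms also differed in Y-linked counts, given below, whose part in this was not tested. Both differences rest on few libraries. That of Ephx2 did not pass when any of fish oil/pectin libraries 1, 2, 4 and 5 was left out, nor any of corn oil/cellulose libraries 1, 3, 4, 7 and 8, with values of 0.38 to 0.55. That of Pla2g15 was lost without any 1 library except fish oil/pectin library 7 (0.62, adjusted p = 0.0364), with values of 0.49 to 0.68. Ptgr1, at 0.70 with GC names and 0.20 without (difference 0.50, adjusted p = 0.0696), and Hpgd, at -0.15 and -0.57 (0.42, adjusted p = 0.150), were not shown to differ.

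**Figure D4:**
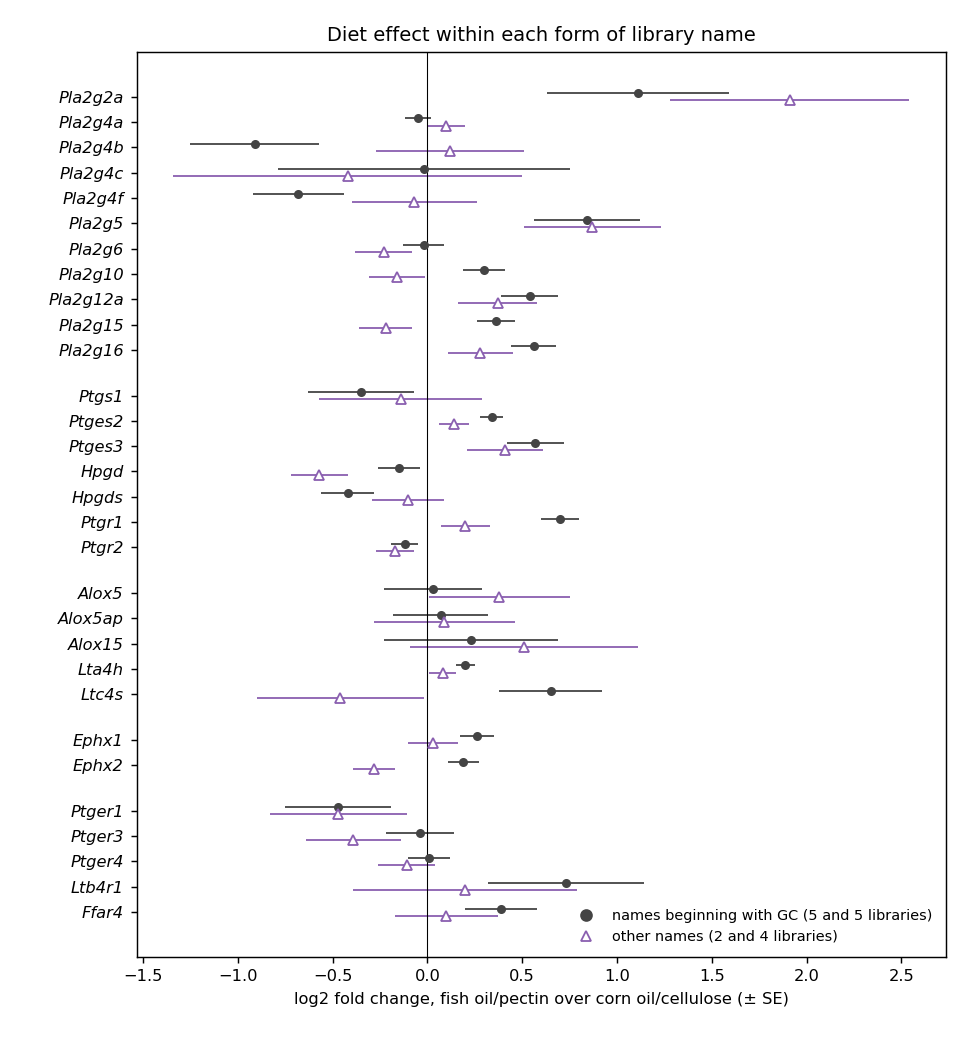
Log2 fold change, fish oil/pectin over corn oil/cellulose, of the 30 tested genes within GC-named libraries (filled circles) and within the others (open triangles), each with its standard error. Ephx2 and Pla2g15, at 0.19 and 0.36 with GC names and -0.28 and -0.22 without, are the members whose difference passed.

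All fish oil/pectin libraries carried numbers in the 700s, whereas 4 corn oil/cellulose libraries did and 5 carried higher numbers; the labels do not say what the numbers stand for. With the 700s alone 4 members were higher and 0 lower, among 2252 genes called. The calls of Pla2g5 (0.83, adjusted p = 0.0665), Pla2g12a (0.43, adjusted p = 0.105) and Lta4h (0.15, adjusted p = 0.0947) were lost there. So were those of Pla2g2a (1.51, adjusted p = 0.0759), Hpgd (-0.32, adjusted p = 0.0813) and Hpgds (-0.39, adjusted p = 0.0846). Those of Pla2g16, Ptges2, Ptges3 and Ptgr1 held. Y-linked genes had over 100 counts in 3 of 7 fish oil/pectin and 6 of 9 corn oil/cellulose libraries, among them every library without the GC prefix. Of the GC-named libraries 1 with fish oil/pectin and 2 with corn oil/cellulose did. Name form and this mark of male mice were therefore partly confounded. With it as a covariate 8 members were higher and 2 lower, among 5514 genes called. Hpgds lost its call there (-0.29, adjusted p = 0.0591) and Pla2g4f gained one (-0.51, adjusted p = 0.0384).

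Beyond the 42 genes, 60 others of the pathway were in the table, and 36 were tested. With fish oil/pectin 8 were higher and 7 lower (41.7% called, against 42.7% of all genes), with a median log2 fold change of -0.05. The list was drawn up with earlier results of these data known. The 10 with the lowest p that passed are given here. Lpcat3, which puts polyunsaturated fatty acids into phospholipids, had 142, 156 and 171 CPM as lowest, median and highest with fish oil/pectin, against 115, 126 and 133 CPM with corn oil/cellulose, so its groups did not overlap (0.28, adjusted p = 0.000555). Among reductases Cbr1, a carbonyl reductase that acts on prostaglandin E2, rose by 0.45 (adjusted p = 0.000769), Akr1b3 by 0.31 (adjusted p = 0.00712) and Akr1c18 by 1.18 (adjusted p = 0.0136). Gpx4, which reduces lipid hydroperoxides, and Mgst3, a microsomal glutathione transferase able to make leukotriene C4, rose by 0.47 (adjusted p = 0.00149) and 0.35 (adjusted p = 0.00589). Ppara, a nuclear receptor that binds fatty acids and eicosanoids, had 8.25, 12.2 and 18.3 CPM with fish oil/pectin, against 16.4, 23.6 and 34.8 CPM with corn oil/cellulose (-0.79, adjusted p = 0.000718). Cyp2c55, a cytochrome P450 of colon that oxidises arachidonic acid, was at -0.67 (adjusted p = 0.00516), Abcc1, an exporter of leukotriene C4, at -0.36 (adjusted p = 0.00463) and the lysophospholipase Pnpla6 at -0.25 (adjusted p = 0.00361). In the model with an effect for each name form 0 of these 10 passed outside GC-named libraries, as did 0.00% of all genes. That 0 is therefore not read as a result about these 10. With the libraries lacking the prefix fitted alone, Ppara kept its call and the others lost theirs, among 860 genes called. In the former model Akr1c18 was at 0.02 outside GC-named libraries, against 1.68 in them, and was not shown to differ (adjusted p = 0.134). Outside them Gpx4 was at 0.06, Cbr1 at 0.13, Abcc1 at 0.02 and Mgst3 at -0.06. In GC-named libraries these were at 0.68, 0.62, -0.57 and 0.55. Their differences between the forms passed (adjusted p = 0.0240, 0.0273, 0.0180 and 0.0162), among 8.77% of all genes. The remaining ones of the 10 were not shown to differ.

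Other cell types that make or sense eicosanoids were represented unevenly. T, NK and B cell markers summed to 13.3 to 33.5 CPM with fish oil/pectin and 11.6 to 78.7 CPM with corn oil/cellulose, and 7 of 9 tested fell. The gap lay in GC-named libraries, at 15.4 to 33.5 CPM with fish oil/pectin and 40.4 to 78.7 with corn oil/cellulose, while the others had 13.3 to 17.7 and 11.6 to 18.4 CPM. Myeloid markers had 1 of 7 tested higher, Cd14, and 1 lower, Lyz2. Of 10 tested tuft markers 1 fell, Kctd12, and 0 rose. Fibroblast and smooth muscle markers summed to 0.129 to 1.67 CPM with fish oil/pectin and 0.206 to 4.54 CPM with corn oil/cellulose. Endothelial and platelet markers summed to 4.52 to 10.9 CPM with fish oil/pectin and 4.91 to 8.15 CPM with corn oil/cellulose, with the endothelial gene Cdh5 at 0 throughout. Of the epithelial markers 6 of 12 rose. Of 7 tested markers of distal and proximal colon, counted together, 1 rose and 1 fell. The marker that fell was Cyp2c55, listed there as proximal and also among the other pathway genes above. The 14 markers of the non-epithelial score summed to 15.9 to 26.8 CPM with fish oil/pectin and 14.6 to 62.1 CPM with corn oil/cellulose, and 3 of 7 tested fell. With that score in the model 0 members passed in either direction, as did 7 genes in all. The score and the name form together carried 52.0% of the variance of the diet term, against 2.65% for the name form alone. Under that model the log2 fold changes were, for example, 1.42 for Pla2g2a (adjusted p = 0.158) and 0.37 for Ptgr1 (adjusted p = 0.132).

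**Figure D5:**
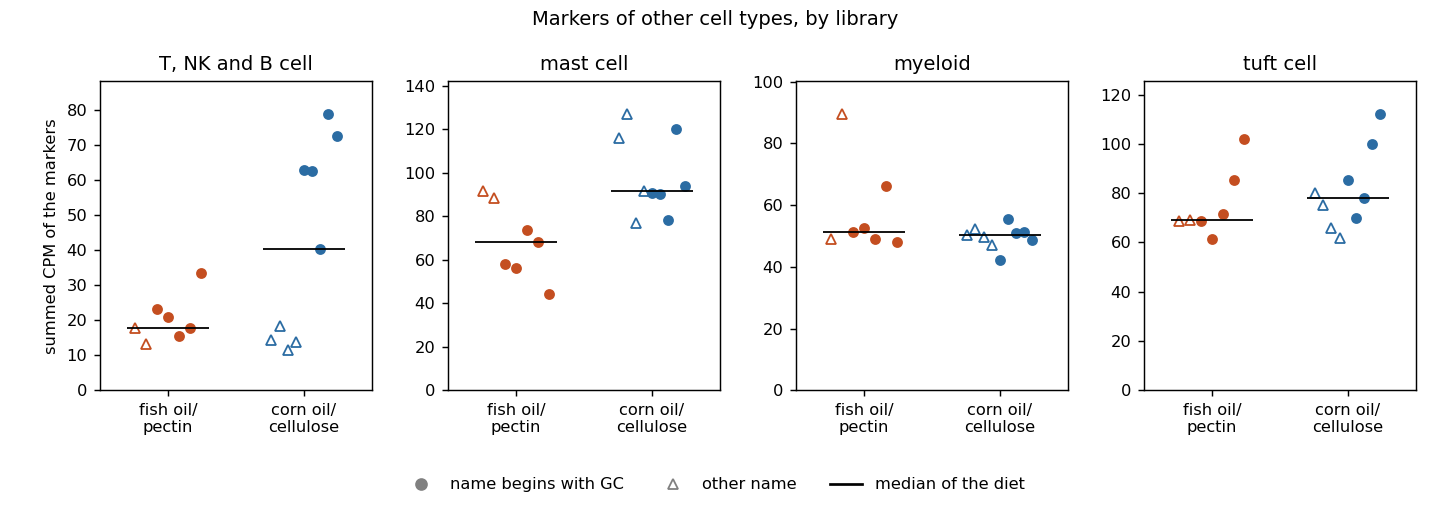
Summed CPM of marker lists in each library, fish oil/pectin left of corn oil/cellulose, with filled circles for GC-named libraries, open triangles for the others and a bar at the median of the diet. T, NK and B cell markers reach 78.7 CPM in GC-named corn oil/cellulose libraries and at most 33.5 CPM with fish oil/pectin. The mast cell sum is mostly Kit and the myeloid sum mostly Cd14. Tuft cell sums overlap.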

How the data were processed

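Column-purified colonocyte RNA, 200 ng a library, went into stranded mRNA libraries, per the labels' protocols. The authors deposited 1 table of raw counts by gene symbol, with no normalisation; 0 per-sample columns were left unused. The tools named are STAR 2.6.0a and HTSeq 0.11.1, with build GRCm38, per the submitters' processing notes; no source used here names the strand setting or the annotation release, so genes that overlap on opposite strands could share reads. Symbols were matched to GENCODE M21 (98.9%) for identifiers, coordinates and exon length. Promoter windows came from RefSeq (GRCm38.p6) for 33 of the 42 members.

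The members and lists were chosen with earlier results of these data known. Counts were analysed with edgeR 4.0.16 in R 4.3.3 (robust quasi-likelihood fit, TMM scaling, filterByExpr by diet, which kept 13825 genes with 99.9% of counts). Standard errors came from the fold change and its F statistic, as |log2 fold change|/√F. Values over libraries and tests were given for members past the threshold and for Pla2g4a, Ptgs1, Ptgs2, Ptges, Hpgd, Alox5, Alox5ap, Alox15, Ephx2, Ptger4 and Ffar4; other members by level and range, and other pathway genes by the 10 lowest p past the threshold. Tests of Pla2g4c, Pla2g4f, Pla2g6, Pla2g10, Pla2g15, Ptgr2, Ltc4s and Ephx1 are printed besides, chosen after their values were seen. Adjusted p are Benjamini-Hochberg values over all genes tested, and those at other settings come from the tool named there. Libraries of 1 diet differed from each other by more than sampling noise (chi-square per degree of freedom 8.20 to 141 over 57 pairs). The fit was tested on simulated data. Alternatives were other models, scalings, filters, subsets and covariates, DESeq2 1.42.0 and limma 3.58.1 voom.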

Additional observations from a re-analysis of the deposited data

Results flagged for a closer look

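Within a diet, 60 sets of 7 or 9 libraries, 1 for each tested gene and diet, were examined for a single library far from the rest by Dixon's criterion at the 95% level, and 5 had one; chance alone gives about 1 in 20. Pla2g4c had 51.2 CPM in corn oil/cellulose library 3, where the next highest was 8.84. Ptger3 had 14.5 CPM in the same library, with the next at 10.8. Fish oil/pectin library 7 was far above the rest in 3 genes: Pla2g12a had 27.6 CPM there with the next at 19.0, Pla2g16 87.8 with the next at 67.8, and Ptgs1 2.46 with the next at 1.45. The diet effect in GC-named libraries exceeded that in the others by 0.59 on the log2 scale for Pla2g15 (edgeR adjusted p = 0.0488) and by 0.47 for Ephx2 (adjusted p = 0.0378), each of which passed a test of the difference.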

How the results depend on the processing

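Under 33 alternative settings 0 of the 10 called members kept the call throughout, mainly because of the non-epithelial marker score and the 6 libraries without the GC prefix alone; 8 of 10 kept it whichever single library was left out, the exceptions being Hpgd and Hpgds. The count of members higher (8) was 0 with the marker score, 0 in the libraries without the GC prefix and 4 in the 700s. The count lower (2) was 0 with the score and in the 700s, 1 without a name form term, with a replicate block, in the libraries without the GC prefix, without fish oil/pectin libraries 6 and 7 and with the exon length trend removed, and 4 under total counts and DESeq2. All genes called (5909) came to 3502 with a replicate block, 860 without the GC prefix, 2252 in the 700s and 7 with the score. Other pathway genes called (15) came to 2, 9 and 0 in the last 3 settings. The members' median (0.15) was 0.04 without fish oil/pectin libraries 6 and 7. The 2 differences between name forms came to 0 under total counts.

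Leaving out 1 library gave 8 to 9 members higher, 1 to 2 lower, 5041 to 5991 genes, 11 to 16 other pathway genes, medians of 0.10 to 0.16 and 0 to 2 differences between name forms. Of all calls 51.7% were higher with TMM scaling, 37.8% with total counts alone (median of all genes -0.08) and 62.8% with the exon length trend removed. Without the GC prefix Abcc1 and Mgst3 turned to 0.02 and -0.05, below the threshold. Pla2g4f, Ptgr2, Pla2g15, Ephx1 and Ptger1 gained a call under some setting, as did Pla2g4c with the replicate block and Cysltr1 with no filter on low counts (adjusted p = 0.0440). Same-numbered libraries were not shown to be pairs: correlations of their deviations ran from -0.07 to 0.55, 4 of 7 over 0.1, and 0 fish oil/pectin libraries correlated best with their own number. With the replicate block Hpgds and Lta4h lost the call and Pla2g4c was at 1.22 (adjusted p = 0.0248). The causes were not tested. At 1 count per 0.0501 to 0.0685 CPM, small differences in the 12 members under the filter could not be resolved.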
